A study of Mus musculus with 4 samples.

Results

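Granzymes are serine proteases that cytotoxic lymphocytes keep in secretory granules together with perforin, a protein that forms pores in the membrane of a target cell and lets the granzymes in. The expression of 4 granzyme genes (Gzma, Gzmb, Gzmk and Gzmm) and of the perforin gene Prf1 was followed in regulatory T (Treg) cells with and without the deubiquitinase CYLD. These 5 genes were chosen from a series that measured 35557 probe sets, of which 21789 carried exactly 1 gene symbol and gave 19938 genes. Each of the 5 genes had 1 such probe set, so no choice among probe sets was needed.

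The tested cells were YFP-positive Treg cells of C57BL/6 mice with the genotype Cyld fl/fl Foxp3-yfp-cre (CYLD KO, 2 arrays), and the control cells came from Cyld+/+ Foxp3-yfp-cre mice (WT, 2 arrays), all aged 6 to 8 weeks. Mice of both genotypes carried the Cre recombinase, which is made from the Foxp3 locus with yellow fluorescent protein and so removes the floxed gene in cells that have switched on Foxp3. The labels name spleen with lymph nodes as the tissue in one field and spleen in another, and do not say whether animals were pooled or whether the 2 arrays of a genotype came from separate mice. The p-values therefore measure the spread between these samples, which may be technical, and 2 arrays a group limit the precision.

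The values are intensities on a linear scale, with array medians of 103 and 99.0 on the CYLD KO arrays and 101 and 105 on the WT arrays. Cyld itself read 284 and 218 on the CYLD KO arrays and 524 and 502 on the WT arrays, and which exons were floxed is not stated in the labels. Treg cell markers were bright in both genotypes. Foxp3, the defining transcription factor, read 1697 and 1553 in CYLD KO cells and 2016 and 1881 in WT cells, and 0 of 7 Treg cell markers passed the test in either direction. Both CYLD KO values were lower for Foxp3 and for Il2ra, which read 1914 and 1810 against 2579 and 2499 in WT cells. The log2 fold change of Il2ra was -0.45 (limma adjusted p = 0.0831). For Ikzf2 and Tnfrsf18 both CYLD KO values were higher. CYLD KO replicate 2 stood apart in Y-linked genes, with Kdm5d at 268 and 127 on the CYLD KO arrays and 271 and 275 on the WT arrays. The X-linked gene Xist was highest on the same array, at 1630 and 2321 on the CYLD KO arrays and 1306 and 1403 on the WT arrays. The part of animal sex in the differences between genotypes was not tested.

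In cytotoxic T cells and NK cells, granzyme B cuts substrates after aspartate, including caspases, and starts apoptosis. Granzymes A and K cut after basic residues, and granzyme M after methionine or leucine. Activated Treg cells can also make granzyme B, and mouse Treg cells have been described to use granzyme B, with or without perforin, against effector T cells, B cells and NK cells. Granzymes are made as inactive precursors that cathepsin C trims, the proteoglycan serglycin holds them in the granule, and serpins in the cytosol block those that leak.

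The genomic stretches before the transcription starts of Gzmk and Gzmb are shown because these genes were higher in CYLD KO cells. Gzma is shown as the direct neighbour of Gzmk on chromosome 13, and Prf1 as the partner of the granzymes. Each is the 250 bases before the start, 5′ to 3′ on the gene's own strand, from RefSeq with build GRCm38.p6. Capitals mark matches, on either strand, to the motif letters AGGTGT (T-box), TGTGGT (Runx), TGANTCA (AP-1), TTCNNNGAA (STAT) and GGGNNNNNCC (NF-kB).

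Gzmk, chr13:113180966-113181215, minus strand: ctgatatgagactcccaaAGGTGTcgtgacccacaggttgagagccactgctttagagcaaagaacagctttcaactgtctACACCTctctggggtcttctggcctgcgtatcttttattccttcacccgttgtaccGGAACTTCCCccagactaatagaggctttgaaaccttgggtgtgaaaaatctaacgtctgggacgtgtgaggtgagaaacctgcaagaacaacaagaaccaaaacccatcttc

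Gzmb, chr14:56262335-56262584, minus strand: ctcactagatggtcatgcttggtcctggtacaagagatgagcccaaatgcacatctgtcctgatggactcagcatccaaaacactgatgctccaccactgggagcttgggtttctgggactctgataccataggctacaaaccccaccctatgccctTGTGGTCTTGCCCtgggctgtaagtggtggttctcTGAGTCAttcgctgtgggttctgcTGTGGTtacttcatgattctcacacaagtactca

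Gzma, chr13:113100982-113101231, minus strand: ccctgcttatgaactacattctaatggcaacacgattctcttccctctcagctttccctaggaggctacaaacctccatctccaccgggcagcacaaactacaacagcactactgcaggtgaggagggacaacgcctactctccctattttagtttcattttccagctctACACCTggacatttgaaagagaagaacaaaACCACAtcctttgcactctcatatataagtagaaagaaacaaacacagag

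Prf1, chr10:61297586-61297835, plus strand: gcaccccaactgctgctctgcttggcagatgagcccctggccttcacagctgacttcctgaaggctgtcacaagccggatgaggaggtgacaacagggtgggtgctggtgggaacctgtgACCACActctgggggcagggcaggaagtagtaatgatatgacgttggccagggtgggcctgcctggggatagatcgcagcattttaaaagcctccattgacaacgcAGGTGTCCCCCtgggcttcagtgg

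The motifs were counted in windows of 300 bases, 250 before to 50 after the start. The Gzmk window held 2 T-box matches, beginning 232 and 169 bases before the start on opposite strands, and 1 NF-kB match. A T-box match occurred in 13.7% of all 32851 windows of this length, and the NF-kB letters, which are loose, in 50.8%. The Gzmb window held 2 Runx matches, of which 1 overlapped the single NF-kB match, with 1 AP-1 match and 1 STAT match, the last one after the start. A Runx match occurred in 16.8% of all windows, an AP-1 match in 7.81% and a STAT match in 8.3%. The Gzma window held 1 T-box and 1 Runx match. The Prf1 window held 1 T-box match that overlapped its NF-kB match, and 1 Runx match. Both RefSeq windows of Gzmm together held 1 Runx, 1 STAT and 2 NF-kB matches and 0 T-box matches. These matches describe the letters in each window and show no binding.

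The comparison asks which of the granule proteins differ at the transcript level between Treg cells without and with CYLD. By intensity, Gzmk was about 5.92-fold higher in CYLD KO cells and Gzmb about 1.55-fold higher. For Gzmm and Prf1 the 95% intervals of the log2 fold change included 0 and reached no further than 0.36 above and -0.36 below it. Both read near the middle of all genes, at percentiles 51.3 and 52.8 of mean log2 value. No detection call was used, so how much of their signal is background is not known. Their intervals therefore bound the change in intensity, not that in transcript. Gzma was dim on all arrays and was not tested. Of the 5 genes, 4 passed the filter on dim genes, and of those 2 were called higher and 0 lower. Over all 13956 genes tested with limma, 4.79% were called higher and 3.5% lower, 8.3% in all. In 2 of the 4 tested genes, Gzmk and Gzmb, both CYLD KO arrays read above both WT arrays, against 22.5% of all genes tested. The same held for Gzma, which was not tested.

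Gzmk encodes granzyme K, a tryptase-like granzyme known from effector and memory T cells. Its probe set read 705 and 676 in CYLD KO cells, against 119 and 113 in WT cells. The CYLD KO arrays differed from each other by far less than they differed from the WT arrays, and the groups did not overlap. The log2 fold change was 2.56 ± 0.17 (SE), with a 95% interval of 2.23 to 2.90 (limma adjusted p = 2.38e-48, n = 2 each), the 11th largest rise among the genes tested. Gzmk was also above the filter on the WT arrays alone. Its WT values were at the level of Gzmm and Prf1, so how much of them is background is likewise not known. The fold change is therefore one of intensity. Leaving out 1 array at a time gave log2 fold changes of 2.53 to 2.60, each past the threshold.

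Gzmb encodes granzyme B, the granzyme most often linked to killing by Treg cells. It read 326 and 257 in CYLD KO cells, and 186 and 187 in WT cells. The WT arrays were nearly equal, while the CYLD KO arrays lay apart from each other and both above WT. The log2 fold change was 0.63 ± 0.17 (SE), with a 95% interval of 0.30 to 0.97 (limma adjusted p = 0.00443, n = 2 each). The call was not kept without CYLD KO replicate 1 or without either WT array. The log2 fold change was 0.46 without CYLD KO replicate 1 and 0.80 without CYLD KO replicate 2. It stayed at 0.63 without WT replicate 1 and 0.64 without WT replicate 2, where the pooled standard error rose to 0.23.

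Gzma, which encodes granzyme A, read 68.1 and 51.8 in CYLD KO cells, against 46.7 and 49.2 in WT cells. Both CYLD KO values were above both WT values, but the lower one by less than the difference between the CYLD KO arrays. The probe set lay below the filter, at percentile 8.65 of all genes by mean log2 value, and the difference of 0.30 on the log2 scale has no test in the filtered fit. With no filter, limma gave it an adjusted p of 0.356 and a 95% interval of -0.021 to 0.63.

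Gzmm encodes granzyme M, known mainly from NK cells and innate-like T cells. It read 119 and 113 in CYLD KO cells, and 104 and 124 in WT cells. The groups overlapped, with the CYLD KO values lying between the WT values. The log2 fold change was 0.027, with a 95% interval of -0.31 to 0.36 (limma adjusted p = 0.949, n = 2 each), and its sign turned when single arrays were left out.

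Prf1 encodes perforin, without which granzymes do not reach the cytosol of a target cell by the granule route. It read 121 and 115 in CYLD KO cells, and 117 and 123 in WT cells. The groups overlapped here too. The log2 fold change was -0.025, with a 95% interval of -0.36 to 0.31 (limma adjusted p = 0.954, n = 2 each). The upper end of that interval, 0.31, lies below the estimate for Gzmb but above the lower end of the Gzmb interval, 0.30. The intervals of Prf1 and Gzmb thus overlap slightly, while that of Prf1 lies far below the interval for Gzmk. The difference between genes was not tested.

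**Figure D1:**
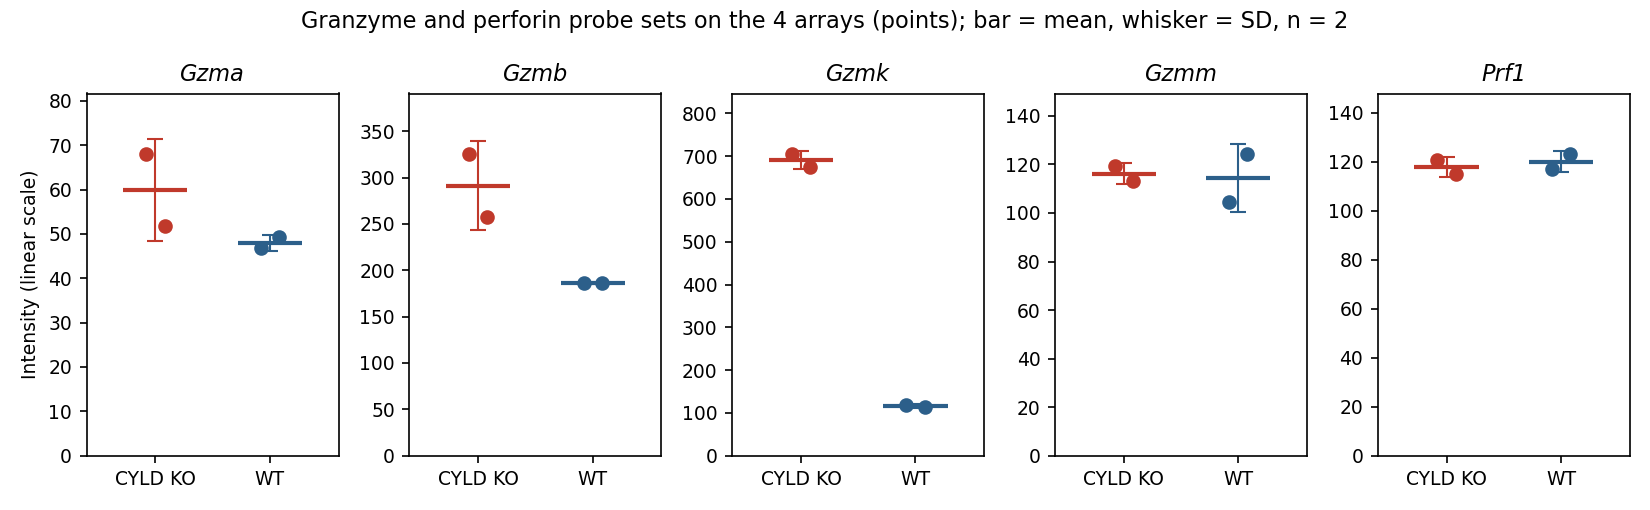
Intensity (linear scale, y axis from 0, one scale per gene) of the 5 probe sets in CYLD KO and WT Treg cells; points are arrays, bars means and whiskers SD (n = 2). Gzmk stood at 705 and 676 in CYLD KO cells against 119 and 113 in WT cells, Gzmb was higher on both CYLD KO arrays, and Gzmm and Prf1 overlapped between genotypes.

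The standard error of 0.17 is the same for each gene because limma pooled the variance over all genes. Without that pooling 0 of the 13956 genes passed, with 1814 at an unadjusted p under 0.05. In that fit Gzmk had an unadjusted p of 3.85e-04 and an adjusted p of 0.208, and Gzmb 0.0649 and 0.413. An exact permutation test of 2 against 2 arrays cannot give a two-sided p below 0.333 for any single gene. As whole-population RNA was measured, a larger share of granzyme-positive cells and more transcript per cell cannot be told apart.

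The CYLD KO arrays were not alike for each gene. On the log2 scale, Gzmb lay 0.80 above the WT mean on CYLD KO replicate 1 and 0.46 on replicate 2, and Gzma 0.50 and 0.11. Gzmk lay 2.60 and 2.53 above it. Replicate 2 thus had the lower value of all 3 genes. Gzmm and Prf1 were also lower on replicate 2, by 0.075 and 0.070, as was the array median. Replicate 2 had the higher summed intensity of 10 proliferation genes, at 10332 against 6925 on replicate 1. Their sums on WT replicates 1 and 2 were 5345 and 5228. Of those 10 genes 9 were called higher in CYLD KO cells, and 5 without CYLD KO replicate 2. Over all genes tested, 4.79% were called higher. The part of the proliferation genes in the granzyme differences was not tested.

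The 6 other mouse granzyme genes, Gzmc, Gzmd, Gzme, Gzmf, Gzmg and Gzmn, lie with Gzmb in a cluster on chromosome 14 and resemble each other closely, so their probe sets may share signal. They read between 40.1 and 100.1 on the CYLD KO arrays and between 40.3 and 92.0 on the WT arrays. Of these, 5 lay below the filter. Gzmg passed it, at 87.5 and 100.1 in CYLD KO cells and 92.0 and 83.0 in WT cells, and was not called (log2 fold change 0.098, limma adjusted p = 0.800). Gzmc, the gene next to Gzmb, read 41.4 and 46.4 in CYLD KO cells against 44.6 and 44.4 in WT cells, levels at which the groups overlapped.

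Gzmk and Gzma are direct neighbours on chromosome 13, with no protein-coding gene between them in the RefSeq table. The genes on the outer sides of this pair were dim. Esm1, next to Gzmk on the other side, read 49.6 and 48.0 in CYLD KO cells against 46.9 and 50.7 in WT cells. Gpx8, next to Gzma, read 86.9 and 60.4 in CYLD KO cells against 65.8 and 77.0 in WT cells. Both lay below the filter and were not tested. Atp12a, on the far side of Gzmb from Gzmc, had a log2 fold change of -0.12 (limma adjusted p = 0.742). Around Prf1 and around Gzmm, 4 of 4 such neighbours each were tested, and 0 were called in limma.

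Few genes that make and hold granule proteases were called. Of 10 listed genes 9 had a probe set and 8 were tested, with 1 called higher and 1 lower. Over all genes tested, 4.79% were called higher and 3.5% lower. The median log2 fold change of the list was -0.16, against -0.023 for all genes tested. Cst7, which encodes cystatin F, an inhibitor of cathepsin C in granules, read 1402 and 1054 in CYLD KO cells and 768 and 721 in WT cells (log2 fold change 0.71, limma adjusted p = 9.47e-04). Without WT replicate 2 its adjusted p was 0.107. Igf2r, a mannose 6-phosphate receptor proposed as an uptake receptor for granzyme B, fell to 648 and 736 in CYLD KO cells, against 1166 and 1067 in WT cells (log2 fold change -0.69, limma adjusted p = 0.00135), with an adjusted p of 0.154 without WT replicate 1.

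Ctsc, which encodes cathepsin C, read 578 and 554 in CYLD KO cells and 708 and 651 in WT cells. Both CYLD KO values were lower, but the difference was not called (log2 fold change -0.26, adjusted p = 0.397 in limma). Srgn, the serglycin core protein gene, read 3704 and 3314 in CYLD KO cells against 3183 and 3253 in WT cells (log2 fold change 0.12, limma adjusted p = 0.742). Neither the convertase of the granzymes nor their matrix proteoglycan was thus called beside Gzmk and Gzmb.

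For granule transport and release, 11 of 12 listed genes were tested. Of these 1 was called higher and 1 lower, against 4.79% and 3.5% of all genes tested. The median log2 fold change was 0.35. Stx11, a syntaxin needed for granule fusion in cytotoxic cells, read 766 and 771 in CYLD KO cells and 421 and 400 in WT cells (log2 fold change 0.90, limma adjusted p = 6.33e-06). Sytl2, a synaptotagmin-like partner of Rab27a, fell to 285 and 228 in CYLD KO cells, against 428 and 393 in WT cells (log2 fold change -0.68, limma adjusted p = 0.00158), and did not pass without CYLD KO replicate 2 (adjusted p = 0.0577) or WT replicate 1 (0.160). The remaining 9 tested genes, among them Rab27a, Unc13d (Munc13-4), Stxbp2, Lyst and Vamp7, did not pass, with log2 fold changes from -0.29 for Snap23 to 0.48 for Vamp7. Vamp7 passed without CYLD KO replicate 1 (adjusted p = 0.0147), and Lyst without CYLD KO replicate 2 (0.00145).

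The serpins that block granzymes in the cytosol were not called. Of 4 listed, 3 were tested, with 0 higher, 0 lower and a median log2 fold change of 0.18. Serpinb9, the inhibitor of granzyme B, read 178 and 177 in CYLD KO cells and 173 and 142 in WT cells (log2 fold change 0.18, limma adjusted p = 0.598). Serpinb6b, described in mouse as an inhibitor of granzyme A, read 339 and 391 in CYLD KO cells and 331 and 293 in WT cells (log2 fold change 0.22, limma adjusted p = 0.488). At unadjusted p under 0.05 the count was also 0. Without pooling of variances 0 of all 13956 genes passed, so that fit says nothing about the serpins.

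**Figure D2:**
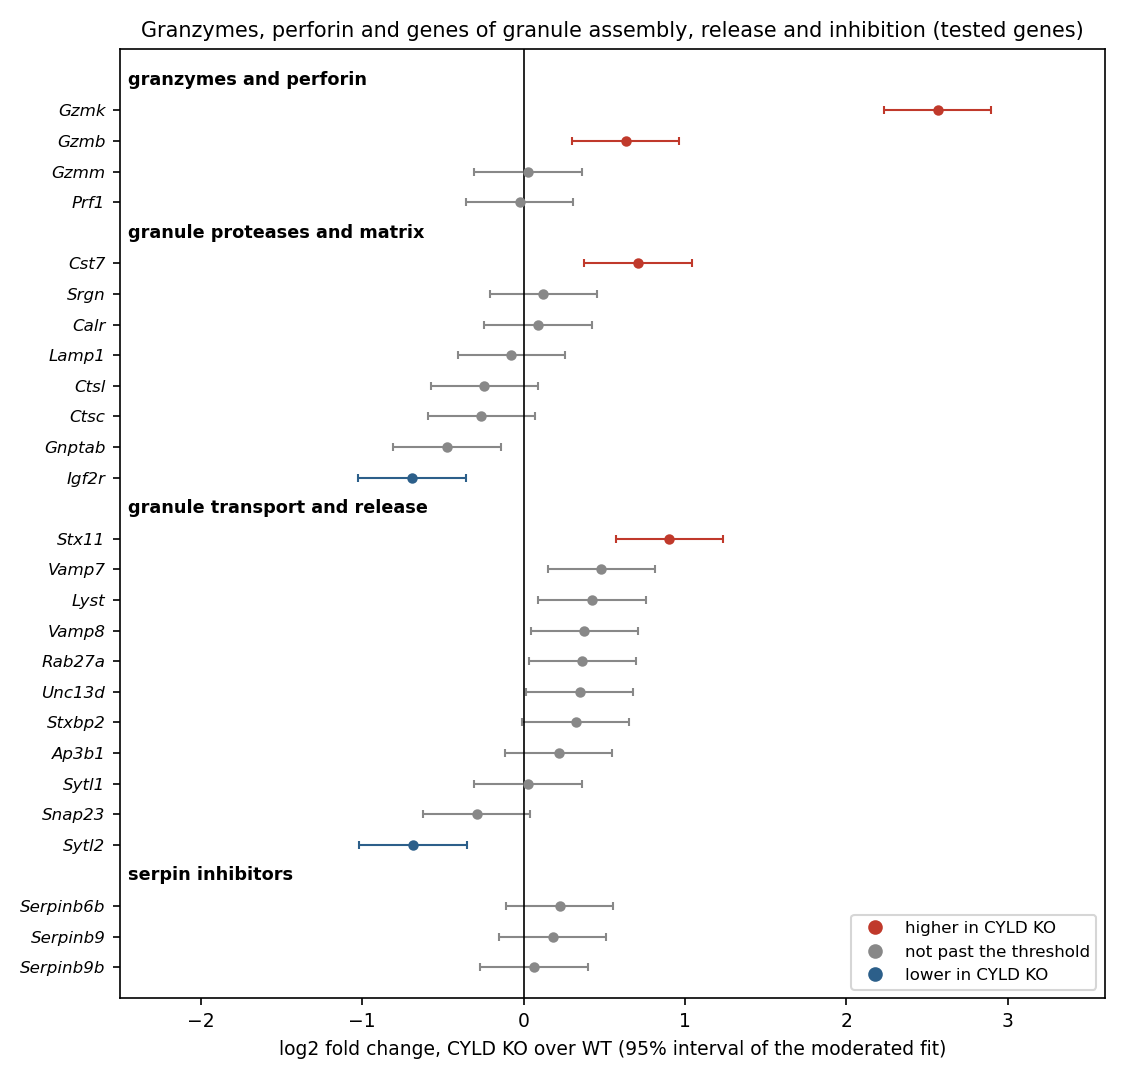
Log2 fold change of CYLD KO over WT (x axis, with the 95% interval of the moderated fit) for tested granzyme and perforin genes and for tested genes of granule assembly, release and inhibition. Gzmk at 2.56 and Gzmb at 0.63 lie right of 0 with Cst7 and Stx11, Igf2r and Sytl2 lie left of 0, and the grey genes did not pass the threshold.

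Transcription regulators linked to cytotoxic lymphocytes, not all of them known to act on granzyme genes, were in part higher in CYLD KO cells. Of 11 listed and tested, 5 were called higher and 0 lower, with a median log2 fold change of 0.25. Eomes, the T-box factor of memory CD8 T cells and NK cells, read 297 and 342 in CYLD KO cells against 109 and 98.9 in WT cells (log2 fold change 1.61, limma adjusted p = 8.23e-19). Tbx21, which encodes the T-box factor T-bet, read 234 and 302 in CYLD KO cells and 182 and 158 in WT cells (log2 fold change 0.65, limma adjusted p = 0.00332). Its adjusted p was 0.112 without CYLD KO replicate 2 and 0.261 without WT replicate 2.

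Prdm1, which encodes Blimp-1, a factor of effector Treg cells and effector CD8 T cells, read 692 and 624 in CYLD KO cells and 401 and 341 in WT cells (log2 fold change 0.83, limma adjusted p = 5.07e-05), with an adjusted p of 0.0677 without WT replicate 2. Id2 and Nfil3 were also called, with log2 fold changes of 0.59 and 0.53, but neither was past the threshold without CYLD KO replicate 1 (adjusted p = 0.0546 and 0.199), WT replicate 1 (0.181 and 0.561) or WT replicate 2 (0.222 and 0.126). Runx3, Zeb2, Irf4, Stat4, Stat5a and Stat5b did not pass, with log2 fold changes between -0.17 and 0.25. Of the whole list, 1 gene, Eomes, was past the threshold without WT replicate 2.

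Other effector molecules of cytotoxic lymphocytes were in part higher in CYLD KO cells. Of 9 tested, 6 were called higher and 0 lower, with a median log2 fold change of 0.63. The chemokine genes Ccl3, Ccl5 and Xcl1 had log2 fold changes of 2.93, 2.58 and 2.08. Ccl3 lay below the intensity filter on the WT arrays alone and entered the test only through the CYLD KO arrays, so its call supports nothing about the list. Nkg7, a membrane protein of cytotoxic granules, read 1265 and 1614 in CYLD KO cells against 495 and 416 in WT cells (log2 fold change 1.65, limma adjusted p = 8.06e-20). The other called genes, Tnfsf10 and Ifng, had log2 fold changes of 0.55 and 0.63 and missed the threshold without WT replicate 1 (adjusted p = 0.249 and 0.130) or WT replicate 2 (0.295 and 0.168), and also without CYLD KO replicate 2 for Tnfsf10 (0.0505) and CYLD KO replicate 1 for Ifng (0.159). Fasl, the ligand of the granule-independent killing route, read 83.0 and 86.8 in CYLD KO cells and 102 and 82.1 in WT cells and was not called (log2 fold change -0.11, limma adjusted p = 0.771). Ctsw, a cathepsin of cytotoxic cells, was not called either, at 235 and 255 in CYLD KO cells and 327 and 265 in WT cells (log2 fold change -0.27, limma adjusted p = 0.380).

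**Figure D3:**
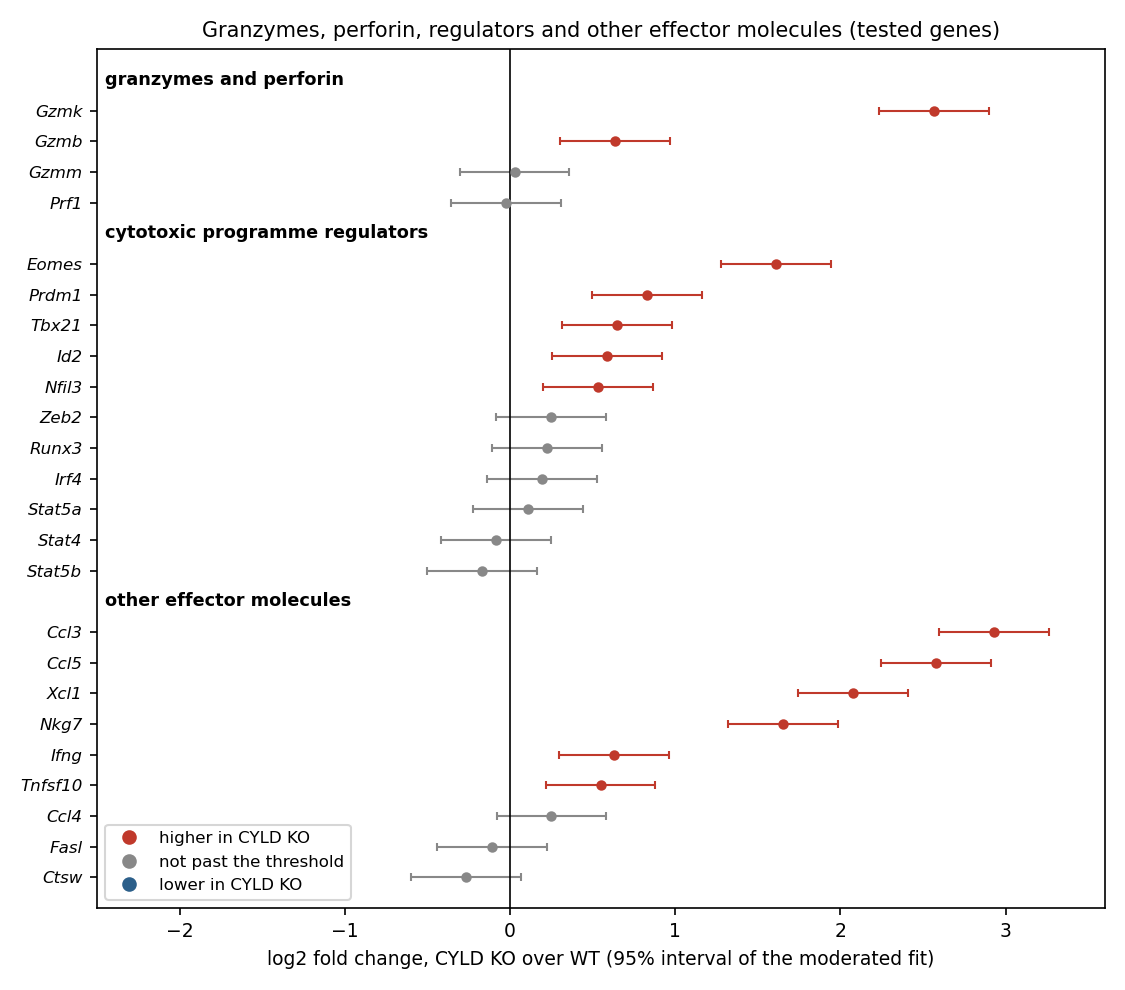
Log2 fold change of CYLD KO over WT (x axis, with the 95% interval of the moderated fit) for tested granzyme and perforin genes, regulators and other effector molecules. Ccl3 at 2.93 (tested only through its level on the CYLD KO arrays), Ccl5 at 2.58 and Gzmk at 2.56 lie farthest right, while Gzmm, Prf1, Fasl and Ctsw have intervals that include 0.

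Cells other than Treg cells can carry granzymes and perforin, so their markers are given beside these results. No gene can be called absent on these arrays, since the lowest intensity in the table was 26.6 and no detection call was used. The 8 NK cell markers with a probe set summed to 574 and 586 on the CYLD KO arrays and 606 and 596 on the WT arrays, so that both CYLD KO sums lay slightly below the WT sums, and 0 of the 3 tested were called. Their defining member Ncr1 read 56.3 and 60.7 in CYLD KO cells against 54.8 and 63.9 in WT cells. The part of NK cells in the granzyme values was not tested.

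The CD8 T cell markers Cd8a and Cd8b1 summed to 589 and 519 on the CYLD KO arrays and 463 and 501 on the WT arrays, groups that did not overlap. Neither was called (limma adjusted p = 0.789 and 0.491). Cd8b1 read 469 and 426 in CYLD KO cells, against 362 and 405 in WT cells. CYLD KO replicate 1 was the higher, and it also had the higher array median (103 against 99.0). The part of CD8 T cells in the granzyme values was not tested.

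Mast cell and basophil markers summed to 835 and 798 on the CYLD KO arrays and 777 and 788 on the WT arrays. Of 5 tested, 1 was called higher, Kit, at 103 and 111 in CYLD KO cells against 78.1 and 63.8 in WT cells (limma adjusted p = 0.00926). Kit entered the test only through its level on the CYLD KO arrays, and missed the threshold without WT replicate 1 (adjusted p = 0.0537) or WT replicate 2 (0.426), while the defining Cpa3 and Mcpt4 were not called. Markers of plasmacytoid dendritic cells, which express Gzmb in some settings, summed to 558 and 597 on the CYLD KO arrays and 694 and 699 on the WT arrays, with 0 of 4 called higher and 1 lower, Pacsin1, which missed the threshold without WT replicate 1 (adjusted p = 0.339) or WT replicate 2 (0.176). Without CYLD KO replicate 1, 1 of these markers was called higher. The defining marker Siglech read 88.1 and 87.5 in CYLD KO cells against 111 and 102 in WT cells. The 2 gamma delta T cell markers with a probe set summed to 268 and 269 on the CYLD KO arrays and 235 and 315 on the WT arrays, and neither was called.

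Macrophage markers moved strongly between the genotypes, in the other direction. They summed to 736 and 872 on the CYLD KO arrays and 1882 and 1766 on the WT arrays, with 7 of 7 tested called lower. Of these 7, C1qa, C1qc, Spic and Slc40a1 lay below the intensity filter on the CYLD KO arrays alone and entered the test only through the WT arrays, where they were higher, so that the count is a description. B cell markers summed to 245 and 226 on the CYLD KO arrays and 199 and 212 on the WT arrays, and the 1 tested, Pax5, was not called. The part of the macrophage, mast cell, plasmacytoid dendritic cell, gamma delta T cell and B cell signals in the granzyme values was not tested.

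**Figure D4:**
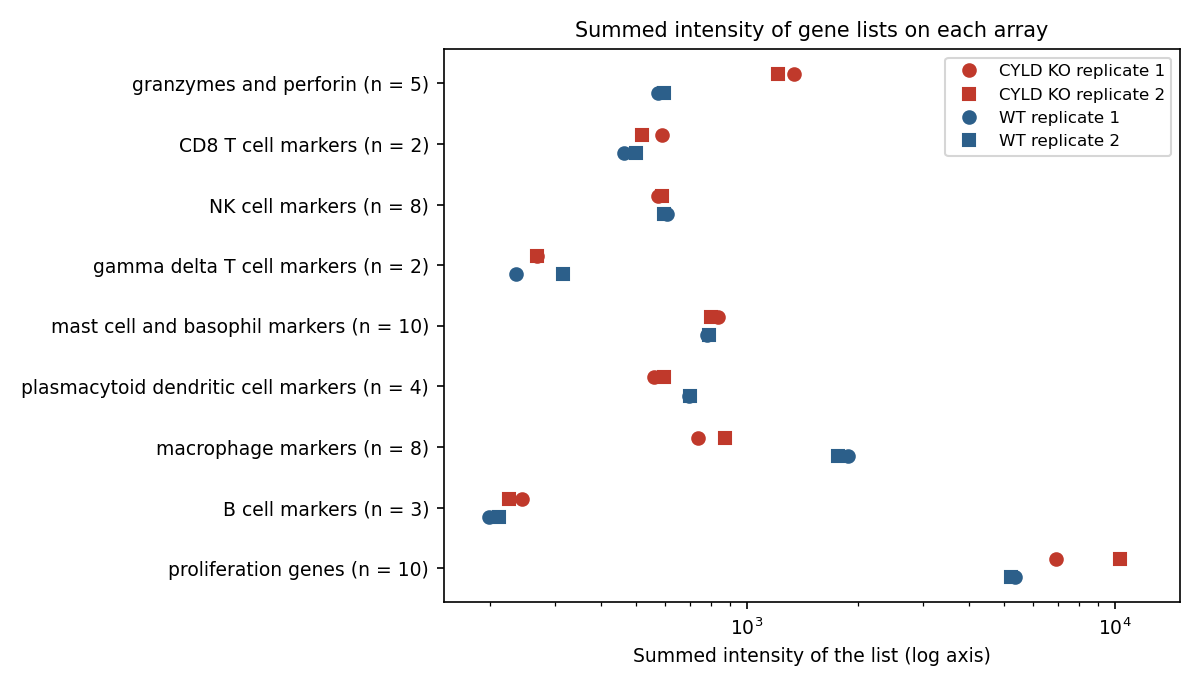
Summed intensity (x axis, log scale) of the 5 granzyme and perforin probe sets, of marker lists and of proliferation genes on each array; red symbols are CYLD KO arrays above the blue WT arrays, circles replicate 1 and squares replicate 2, and n is the number of genes with a probe set. The granzyme and perforin sum was 1339 and 1213 on the CYLD KO arrays against 573 and 596 on the WT arrays. This difference came mostly from Gzmk. The NK cell sums lay between 574 and 606, with 3 of 8 NK probe sets above the filter on dim genes. The macrophage sums were lower in CYLD KO cells.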

How the data were processed

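RNA of sorted Treg cells was measured on 4 Affymetrix arrays, labelled as biotinylated cRNA per the labels' protocols. The authors deposited linear intensities, which run from 26.6 to 7205 (judged from the values). The summary, background correction and scaling behind them are not given in the sources used here.

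Probe sets were named by a 2016 platform annotation, and 21698 of 21789 with exactly 1 symbol matched the RefSeq table of GRCm38.p6. The probe set with the highest mean represented each gene. Values were taken as log2(value + 1), where 1 is small beside the lowest intensity of 26.6. Any background left in the intensities would understate the fold changes of dim genes. Genes above percentile 30 of mean log2 value (6.29) were tested with limma 3.58.1 in R 4.3.3 (lmFit, eBayes), with Benjamini-Hochberg adjustment over 13956 genes and a threshold of 0.05. The fit was tested on simulated data.

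The 5 genes, the related lists and the marker lists were chosen with earlier results of these data known. Named genes were the 5, certain regulators and partners whatever their values, up to 4 called genes a list, and the neighbours and closest profiles of the 5; genes outside this rule are named as counts required. Alternatives covered the pseudocount, scaling, filter, variance model, replicate block and leaving out each array. Leaving out arrays for the marker and proliferation lists was added after seeing the data.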

Additional observations from a re-analysis of the deposited data

How the results depend on the processing

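Gzmk was higher and past the threshold in 10 of 11 alternatives and Gzmb in 7. Without pooling of variances both missed it (adjusted p = 0.208 and 0.413, log2 fold changes 2.56 and 0.63 as before), 0 genes were called in either direction, and the count was 0 for the granzyme and perforin genes and for each related list. Leaving out 1 array gave log2 fold changes of 0.46 to 0.80 for Gzmb, 2.53 to 2.60 for Gzmk, -0.098 to 0.15 for Gzmm, -0.062 to 0.013 for Prf1 and 0.11 to 0.50 for Gzma. Gzmm turned negative without CYLD KO replicate 1 (-0.010) or WT replicate 1 (-0.098), and Prf1 positive without CYLD KO replicate 2 (0.010) or WT replicate 2 (0.013). The same fits called 252 to 918 genes higher and 118 to 767 lower, against 669 and 489 with 4 arrays. They called 1 to 2 granzyme genes, 1 to 4 regulators and 4 to 5 other effector molecules higher. In granule proteases and matrix they called 0 to 1 higher and 0 to 1 lower, and in transport and release 1 to 2 higher and 0 to 1 lower. Fits to 3 arrays assume that the lone array of a group varies like the other group.

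In granule proteases and matrix 2 genes were lower with 16 added before log2, above the median intensity or with an intensity trend, as Gnptab then passed. In transport and release 2 were higher with 16 added, with quantile normalization or above the median, as Vamp7 then passed. Among list genes not called, 4 turned sign without 1 array, with ranges of -0.25 to 0.31 for Sytl1, -0.15 to 0.28 for Serpinb9b, -0.34 to 0.17 for Stat4 and -0.27 to 0.047 for Fasl. The cause of these changes was not tested. No gene had another probe set to compare among the 5. With the replicate number as a block Gzmb had an adjusted p of 0.00818 and 1032 genes were called; deviations of same-numbered arrays correlated at -0.0923 across genes, which gives no sign of pairs, and the block changed no call of the 4 tested among the 5 genes.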

Other observations

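For each tested gene, the closest profiles over the 4 arrays were sought among the other tested genes, as the smallest root mean square difference between log2 values centred on each gene's mean. With 4 arrays many genes lie close by, and the result is a description. Closest to Gzmk was Ccl5, which encodes a chemokine of effector T cells (difference 0.0509), at 3013 and 2637 in CYLD KO cells and 494 and 449 in WT cells. Pnkd (0.0673) and Il1r2, the interleukin-1 decoy receptor gene (0.0704), followed. Closest to Gzmb were Mical3 (0.00920), at 782 and 626 in CYLD KO cells and 448 and 447 in WT cells, Crebl2 (0.0230) and Il17rb (0.0273). The genes nearest to Gzmm were Cysrt1, Mpp3 and Gucy2c, and those nearest to Prf1 were Ifna2, Zfp654 and Ankrd28, with differences up to 0.0113.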
